A study of Drosophila melanogaster with 8 samples.

Results

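Bicoid (Bcd) peaks that carried a high density of sequencing tags in wild-type Drosophila melanogaster embryos, and that overlapped no Bcd peak of zelda mutant embryos, were examined. A member was a wild-type peak on chromosome arm 2L, 2R, 3L, 3R, 4 or X that overlapped no mutant peak by even 1 bp, was shorter than 5000 bp, and held at least 500 ChIP tags per kb of its length. There were 301 such peaks among the 2827 wild-type peaks of the arms and the 3891 of the whole wild-type list. The members were chosen by wild-type tags, peak length and the overlap with the mutant list, so all values that come from the same wild-type ChIP (density, score, fold enrichment and false discovery rate) are given as a description with no test.

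The study mapped Bcd by chromatin immunoprecipitation and sequencing (ChIP-seq) in embryos aged 1 to 3 h after egg laying. The 4 groups of 2 samples each were zelda mutant Bcd ChIP, zelda mutant input, wild-type Bcd ChIP and wild-type input. The labels call the mutant only "zelda mutant" and do not name its allele or say how the embryos were made. Each genotype had 1 deposited peak list, so no value below has a replicate spread, and intervals cover counting error only.

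Bcd is a homeodomain transcription factor translated from maternal mRNA at the anterior pole; it spreads as a gradient and activates head and trunk patterning genes in a concentration-dependent way. Zelda is a maternal zinc finger protein present throughout the early embryo. It is known as a pioneer-like factor that opens chromatin at early enhancers, and it helps other patterning factors to reach their sites there. Peaks are called by their position on the build dm3, since no gene annotation of that build was used here.

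The ChIP libraries held 10060479 mutant and 39154546 wild-type tags after removal of duplicates, a ratio of 0.257. Spread evenly over the effective genome of 152 Mb that the peak caller assumed, this is 66.2 mutant and 258 wild-type tags per kb. The 301 members lay at 1.94 to 3.40 times the wild-type mean. Of the 1870 mutant arm peaks, 668 (35.7%) lay below 1.94 times their own library mean. Scaled by the ratio of tags, the members would hold between 170 and 835 tags with a median of 327, and 713 of the mutant arm peaks held fewer than 170. These counts cover unlike lengths, with a median of 2176 bp for members and 1364.5 bp for mutant arm peaks. The score that decides a call also depends on the control and on the local background. The part of the depth difference in the absence of mutant peaks was not tested.

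Among short arm peaks, 301 of the 820 dense ones lacked a mutant peak, or 36.7% (Wilson 95% interval 33.5 to 40.1). The share over all wild-type arm peaks was 54.5%, and it was 65.5% for short arm peaks under the density threshold. The fall with density was not even. Without a mutant peak were 81.3% of the peaks with 350 to 400 tags per kb (interval 78.0 to 84.3), 59.6% of those with 400 to 450 (55.7 to 63.5) and 44.2% of those with 450 to 500 (39.6 to 48.9). From 500 tags per kb upward the share was 37.7% (32.5 to 43.1), then 44.3% (37.5 to 51.4) and 43.7% (35.6 to 52.1) in the next steps of 50 tags per kb. It was 26.6% (18.1 to 37.2) from 650 to 700 and 16.7% (10.5 to 25.4) at 700 or more. Between 450 and 650 tags per kb the shares of the 4 classes thus lay between 37.7 and 44.3%. With the mutant list limited to a false discovery rate of at most 5%, 674 of the 820 dense short peaks lacked a mutant peak. This limit removes most of the mutant list: the rate of mutant arm peaks had a first quartile of 8.67% and a median of 10.1%. The share over all wild-type arm peaks at this limit was not computed, so whether the count is particular to dense peaks cannot be told.

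**Figure D1:**
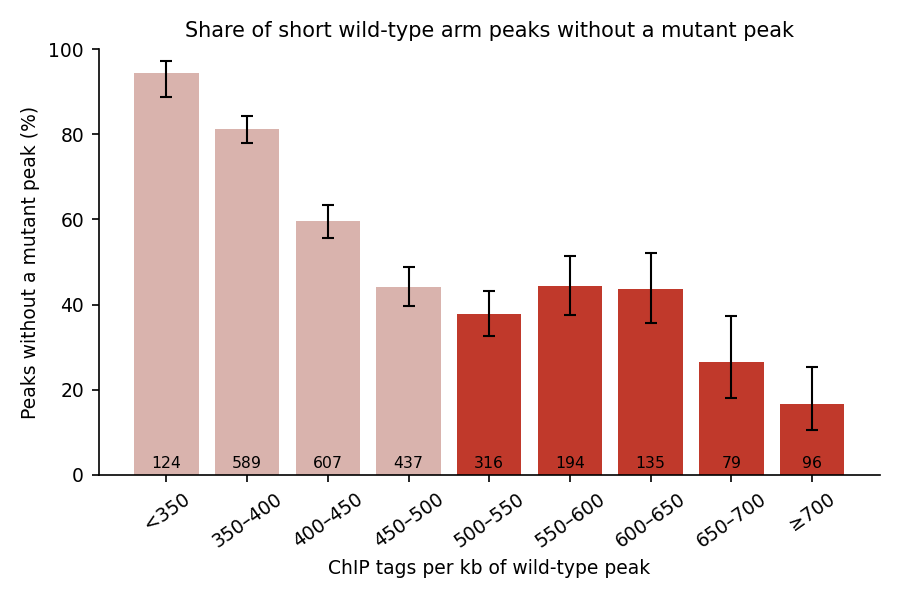
Share of wild-type arm peaks shorter than 5000 bp that overlapped no mutant peak (y axis, percent), by ChIP tags per kb of the peak (x axis); bars in full red are the classes that make up the 301 members, error bars are Wilson 95% intervals, and the number of peaks in a class stands at the foot of its bar. The share is 94.4% under 350 tags per kb, between 37.7 and 44.3% from 450 to 650, and 16.7% at 700 or more.

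The share also fell with peak length. Of dense peaks of 1500 to 2000 bp, 91 of 204 lacked a mutant peak, or 44.6% (37.9 to 51.5). Of those of 4000 to 5000 bp, 19 of 98 did, or 19.4% (12.8 to 28.3). A longer peak also offers more sequence for a mutant peak to overlap, and the part of this was not tested. The members had a median length of 2176 bp (interquartile range 1706 to 3003) and a median of 1274 tags (982 to 1731), while the 519 dense short peaks with a mutant peak had 2499 bp (1882.5 to 3464) and 1510 tags (1088 to 2173). The median densities were close, with 569 tags per kb for members and 579 for dense shared peaks. The members' summits lay between 0.333 and 0.667 of the peak's length in 216 of 301 cases (71.8%, 66.4 to 76.5), against 324 of 519 dense shared peaks (62.4%, 58.2 to 66.5).

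The median fold enrichment of the members lay close to that of the dense peaks that kept a mutant partner, and a little above it. The fold is the authors' ratio of ChIP signal to the background that the control predicts around the peak. Its median was 7.24 in the members (interquartile range 6.28 to 8.62) and 6.92 in the dense shared peaks (5.84 to 8.30). The difference of 0.32, a description with no test, turned to -0.375 with a threshold of 400 tags per kb, to -0.40 with a mutant list limited to a false discovery rate of at most 5%, and to -0.195 without copy-like peaks as defined further on. Between 550 and 600 tags per kb the medians were 7.31 for members and 6.45 for shared peaks, and between 600 and 650 they were 8.70 and 7.59; in the other 3 classes of density the members' median was higher by 0.17 to 0.31. Split by length, the members' median was the lower one from 2500 to 3000 bp (7.25, against 7.33 for shared peaks) and from 3000 to 4000 bp (6.76, against 6.97). Split by score it was the lower one from 100 to 200 (5.62, against 5.84). Under 500 tags per kb the order was the opposite in every class of density, with 5.62 for wild-type-only and 5.77 for shared peaks from 450 to 500, and 4.49 and 4.89 from 350 to 400. The other wild-type-only short arm peaks, 1151 under the density threshold, had a median fold of 4.66.

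**Figure D2:**
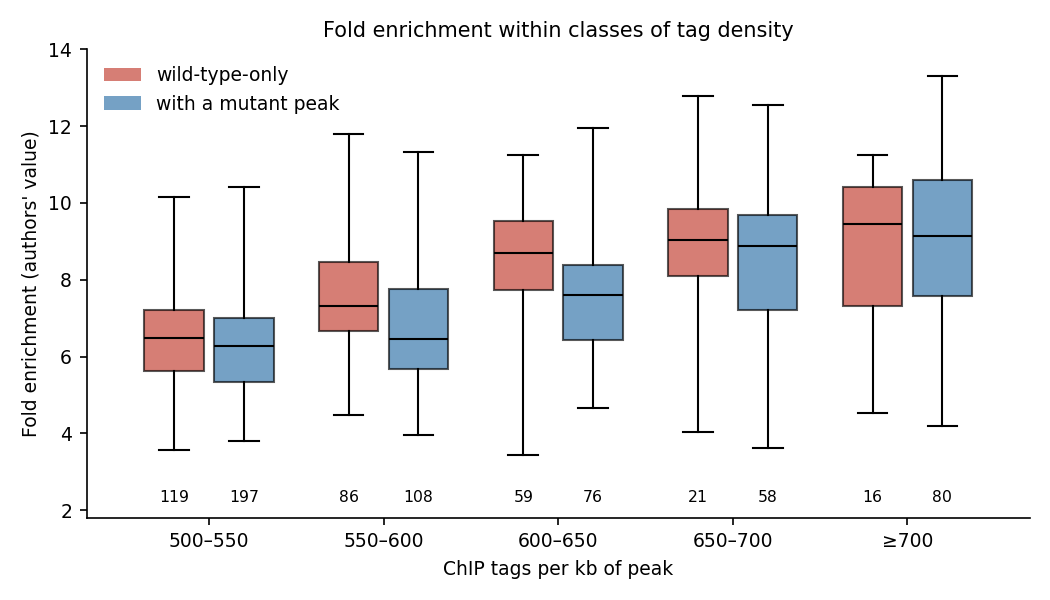
Fold enrichment of dense short wild-type arm peaks (y axis, the authors' ratio) by ChIP tags per kb (x axis), for members in red and peaks with a mutant peak in blue; boxes span the quartiles with the median as a line, whiskers reach the lowest and highest peak, and the number of peaks stands under each box. The median of members is the higher one in each of the classes, by 0.17 to 1.11.

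The score (the authors' p-value on a log10 scale, times -10) had almost the same median in members and dense shared peaks, 447 and 448. Its spread was narrower in members at both ends, with an interquartile range of 285 to 693, against 236 to 914 in shared peaks. At the upper end, 33 of 301 members (11.0%, 7.91 to 15.0) and 115 of 519 shared peaks (22.2%, 18.8 to 25.9) scored at least 1000. A false discovery rate of at most 5% was given to 238 members (79.1%, 74.1 to 83.3), to 381 dense shared peaks (73.4%, 69.4 to 77.0) and to 127 of the 1151 less dense wild-type-only peaks (11.0%, 9.35 to 13.0). A rate of 0 was rarer in the members, with 6 of 301, against 46 of 519 shared peaks.

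Across the 301 members, fold and density had a Spearman correlation of 0.51, and density and length one of 0.13; the values come from the same library. Of the 16 members with at least 700 tags per kb, 4 had a fold under 7. The densest member of all, at X from 8186974 to 8190663, held 3236 tags (exact Poisson 95% interval 3125 to 3349) in 3690 bp, or 877 tags per kb, and yet had a fold of 4.54 and a score of 234. The member at 3R from 2578591 to 2582341 was nearly as dense, with 3249 tags (3138 to 3363) or 866 tags per kb, and had a fold of 10.3 and the highest score of the members, 3118. Tag density by itself thus placed peaks of very unlike enrichment over control side by side. The other dense members with a low fold were 3L from 14936359 to 14939982, with a fold of 4.82, 2R from 17079834 to 17081886, with 6.59, and 3L from 22058356 to 22061699, with 6.79; these were picked out after their values were seen.

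**Figure D3:**
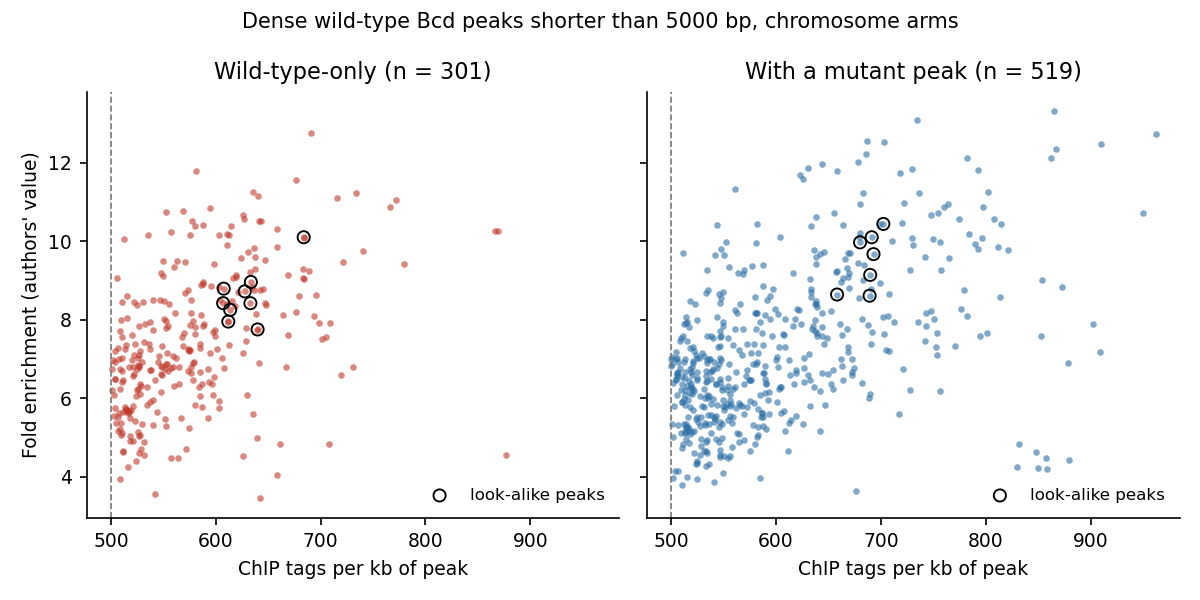
Fold enrichment (y axis, the authors' ratio) against ChIP tags per kb (x axis) for members on the left and dense short peaks with a mutant peak on the right; each point is a peak, the dashed line is the threshold of 500 tags per kb, and open circles mark the look-alike peaks described in the text. The densest member, with 877 tags per kb, has a fold of 4.54.

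The second densest member was at X from 11215545 to 11217799, with 870 tags per kb, a fold of 10.3 and a score of 2010. A mutant peak with a fold of 2.91 and a score of 51.8, just over the cutoff of 50, lay 1150 bp from it. Folds and scores are not comparable between the wild-type and mutant lists, whose libraries differ in depth. Next in density were 3R from 20574212 to 20576555 (779 tags per kb, fold 9.43), 3L from 4756833 to 4758610 (772, fold 11.1) and 2R from 20687686 to 20689325 (766, fold 10.9). The 10 members with the highest fold spanned 10.9 to 12.8, and 4 of them lay on X. The last of these, at X from 19985735 to 19987272, held 915 tags (857 to 976) in 1538 bp and had a fold of 10.9. Its nearest mutant peak was 202 kb away. A score of 1916 and 2892 tags (2788 to 2999) were found at 2R from 15956685 to 15961178, where the nearest mutant peak lay 1.86 kb off with a fold of 3.55.

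On either side of the density limit the folds overlapped. The members just inside the density threshold were at 2L from 8143437 to 8147527 (501 tags per kb, fold 6.20), 3R from 16776163 to 16778254 (501, fold 6.74) and 2R from 17246349 to 17248928 (502, fold 6.97). Just outside were 3L from 12868120 to 12870675 (499 tags per kb, fold 5.49), X from 6716469 to 6717738 (498, fold 8.82) and 2R from 19413465 to 19415530 (497, fold 6.94). The longest members were 4842 bp at 3L from 16765051 and 4832 bp at 2L from 4819995, with folds of 7.14 and 8.70. The shortest peaks kept out by their length were 5004 bp at 2L from 11074071 and 5114 bp at 3R from 25864593, with folds of 10.6 and 9.41. Of the wild-type-only arm peaks, 90 were 5000 bp or longer, 53 of them with at least 500 tags per kb.

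Members were found on every arm, at similar shares of the dense short peaks. The members numbered 59 of 167 on 2L (35.3%), 54 of 157 on 2R (34.4%), 68 of 170 on 3L (40.0%), 79 of 214 on 3R (36.9%) and 39 of 106 on X (36.8%), and differences between arms were not tested. Chromosome 4 held 2 members among 6 dense short peaks, at 79003 to 81813 with a fold of 5.59 and at 327982 to 330248 with a fold of 6.99. The X members stood higher in fold, with a median of 9.12 against 6.89 to 7.37 on the large autosomal arms. Dense shared peaks of X also had a higher median, 7.70, against 6.64 to 7.09 on those arms. X members were shorter, with a median of 1836 bp against 2063 to 2536 bp on 2L, 2R, 3L and 3R. On the autosomal arms alone, the members' median fold was 7.07 and that of dense shared peaks 6.73.

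Distances to the nearest mutant peak were set beside those of the less dense wild-type-only peaks. Distances from other positions on the arms were not measured, and the rule excludes overlap. The values thus do not show whether members lie nearer to mutant peaks than the spacing of these peaks gives. The nearest mutant peak was at a median distance of 15.9 kb (interquartile range 4.26 to 43.1 kb) from a member and of 21.1 kb (6.25 to 57.4) from a less dense wild-type-only peak. It was within 1000 bp for 21 members (6.98%, 4.61 to 10.4), against 53 of the 1151 less dense peaks (4.60%, 3.54 to 5.97), and within 5000 bp for 86 members (28.6%, 23.8 to 33.9), against 234 less dense peaks (20.3%, 18.1 to 22.8). For 229 members (76.1%) the nearest mutant peak overlapped some wild-type peak, and so it did for 895 less dense peaks (77.8%). A wild-type peak with a mutant partner had its summit within 10 kb of 97 member summits (32.2%, 27.2 to 37.7), against 284 of the less dense peaks (24.7%, 22.3 to 27.2). Peaks of 1 locus are not independent, and these shares were not tested against each other.

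**Figure D4:**
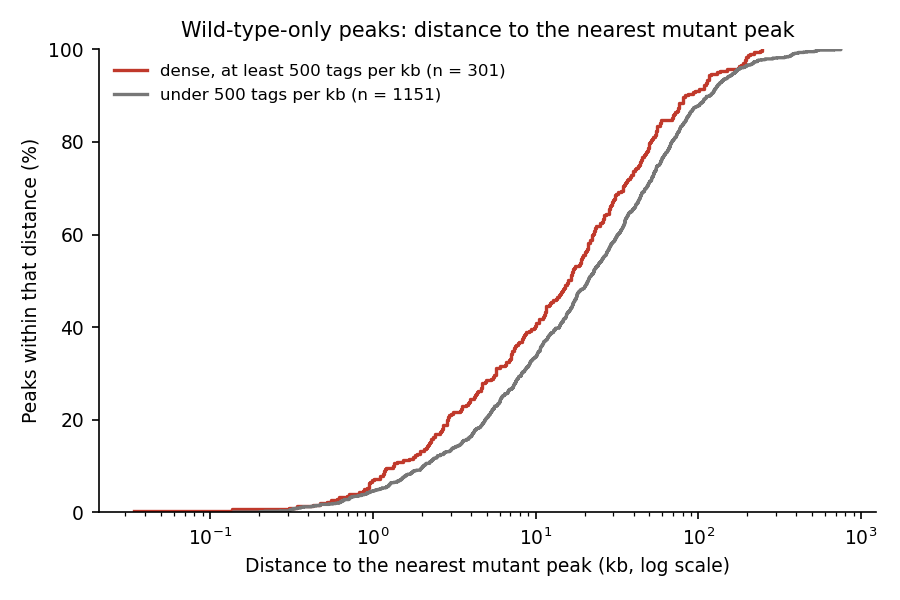
Cumulative share of wild-type-only arm peaks shorter than 5000 bp (y axis, percent) within a given distance of the nearest mutant peak (x axis, kb, log scale), for the 301 members in red and the 1151 less dense peaks in grey. The curve of the members lies to the left over most of its course, with medians of 15.9 and 21.1 kb.

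The closest pair was at 2L, where the member from 7303753 to 7306288, with 1379 tags and a fold of 5.65, ended 34 bp before a mutant peak of 236 tags and a fold of 4.66. At 3R the member from 2860912 to 2862394, with a fold of 7.78, lay 136 bp from a mutant peak with a fold of 6.02 and a score of 547. The member at 2R from 14686461 to 14689179 (fold 8.01) lay 305 bp from a mutant peak. On 3R the members from 9229891 to 9233110 (fold 8.50) and from 15164199 to 15165922 (fold 7.55) lay 343 and 427 bp from one. All 5 neighbouring mutant peaks overlapped another wild-type peak. Their tags, folds and scores are not comparable with those of the members, as the libraries differ in depth. At the other end, the members farthest from any mutant peak were 3R from 3554915 to 3556740 (246 kb, fold 4.47, score 55.1), 3L from 2196656 to 2198245 (240 kb, fold 7.21) and 2L from 11070462 to 11072332 (219 kb, fold 6.97). The Spearman correlation of distance with fold was 0.01 over the 301 members.

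Members were not gathered in large groups. When summits within 10 kb of each other were joined, 52 members formed 26 pairs and no run of 3, so that 17.3% of members had another within 10 kb. The 519 dense shared peaks formed 66 runs holding 147 peaks (28.3%), of which 13 runs had 3 or more, up to 4. Of the 1151 less dense wild-type-only peaks, 396 (34.4%) had another of their kind within 10 kb. A larger set gives more neighbours, and the sets differ in size. In 22 of the 26 pairs of members no mutant peak lay between or on them. The widest pairs were at 3R from 2700591 to 2712806 with folds of 7.36 and 8.16, at X from 6942095 to 6953876 with folds of 8.45 and 11.8, and at 3L from 16008247 to 16019834 with folds of 8.76 and 9.75. The last of these enclosed a shared wild-type peak and its mutant peak.

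Peaks that resemble each other in length and tags were counted as a sign of repeat copies. Of the 301 members, 265 had another member within 2% of their length and within 5% of their tags, or 88.0%, and the same held for 477 of the 519 dense shared peaks among themselves, or 91.9%. The rule thus marked nearly every dense peak in either set, and a larger set gives more partners. Within 1% of length and 2% of tags there were 128 members and 256 shared peaks. When the fold also had to be within 5% and the summit offset within 20 bp, 20 members (6.64%) and 17 shared peaks (3.28%) remained. The shares were closer with a summit offset within 50 bp, 41 members (13.6%) and 53 shared peaks (10.2%), and with the offset read from either end, 50 members (16.6%) and 77 shared peaks (14.8%). The 20 members formed 10 pairs, 5 of them across arms. The closest in length, 1458 and 1462 bp, were at 3L from 20973824 and 3R from 17283678, with 879 and 839 tags, summits 751 and 769 bp from the start and folds of 8.83 and 8.75. Whether any pair shares its sequence was not tested, as no dm3 sequence was used here.

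One group of look-alike peaks stood out, and it was picked after its values were seen. It was bounded as arm peaks of 2000 to 2300 bp with 1200 to 1600 tags, a summit 550 to 700 bp from the nearer end and a score of at least 900. Of 62 arm peaks with that length and tag number, 22 had their summit in that range and 16 of these also had the score. Of the other 40, 3 had that score. The limits on summit and score were set with these values known, so the counts describe the group and do not test it. The 16 look-alikes held 9 members (4 on 2L, 3 on 3R and 1 each on 3L and X) and 7 peaks with a mutant partner (3 on 2L, 2 on 3R and 2 on X). The members among them were 2097 to 2244 bp long with 1273 to 1443 tags, a fold of 7.75 to 10.1 and a score of 913 to 1157. The shared ones were 2111 to 2241 bp long with 1450 to 1546 tags, a fold of 8.61 to 10.4 and a score of 943 to 1413. The ranges of tags did not overlap between members and shared look-alikes, within the limits on tags that bounded the group. The edges of these ranges lay within counting error of each other. The exact Poisson interval of the member with 1443 tags was 1369 to 1519, and the fewest tags of a shared look-alike were 1450.

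The summit lay towards the end coordinate in 8 of the 9 look-alike members and towards the start coordinate in 6 of the 7 shared ones. The only member with its summit near the start, at 3L from 9157501 to 9159610, had the highest fold, 10.1, and the most tags, 1443, of the 9. The members 2L from 15652827 to 15654957 and 2L from 15838158 to 15840308 had summits 1551 and 1561 bp from the start, 1350 and 1307 tags, and folds of 8.96 and 8.79. The members 3R from 13751310 to 13753489 and X from 20811461 to 20813630 had summits at 1539 and 1522 bp, 1338 and 1328 tags, and folds of 8.25 and 7.95. Read from the nearer end, the summits of the 9 members lay at 560 to 684 bp and those of the 7 shared peaks at 560 to 691 bp.

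The mutant peaks at the 7 shared look-alikes were alike, with low scores and tag densities. They were 945 to 1693 bp long and had 101 to 177 tags, a fold of 3.85 to 4.61 and a score of 55.4 to 104, where the cutoff was 50. Their summits lay 1 to 47 bp from the wild-type ones. The median fold of the 7 was 4.31, against 3.97 for all mutant arm peaks and 4.58 for the mutant partners of all 519 dense shared peaks. Of the mutant partners of all 519 dense shared peaks, 106 (20.4%) had a score of 104 or less, and the median was 228. Against its own library mean, the density was 1.58 to 1.80 times in the 7 mutant peaks and 2.56 to 2.73 times in their wild-type partners, lower in the mutant in 7 of 7. Over all 519 pairs it was lower in the mutant in 204, with medians of 2.42 in the mutant and 2.25 in wild type, over mutant peaks that were shorter (median 1566 bp). The look-alikes were bounded by wild-type length, tags and score, so a high wild-type multiple was partly set by their limits. Pairs of like wild-type density were not compared, so the 7 of 7 is a description only. The 9 look-alike members lay at 2.36 to 2.65 times the wild-type mean and their nearest mutant peaks lay 8.23 to 197 kb away. How many separate sequences stand behind the 16 peaks was not tested.

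**Figure D5:**
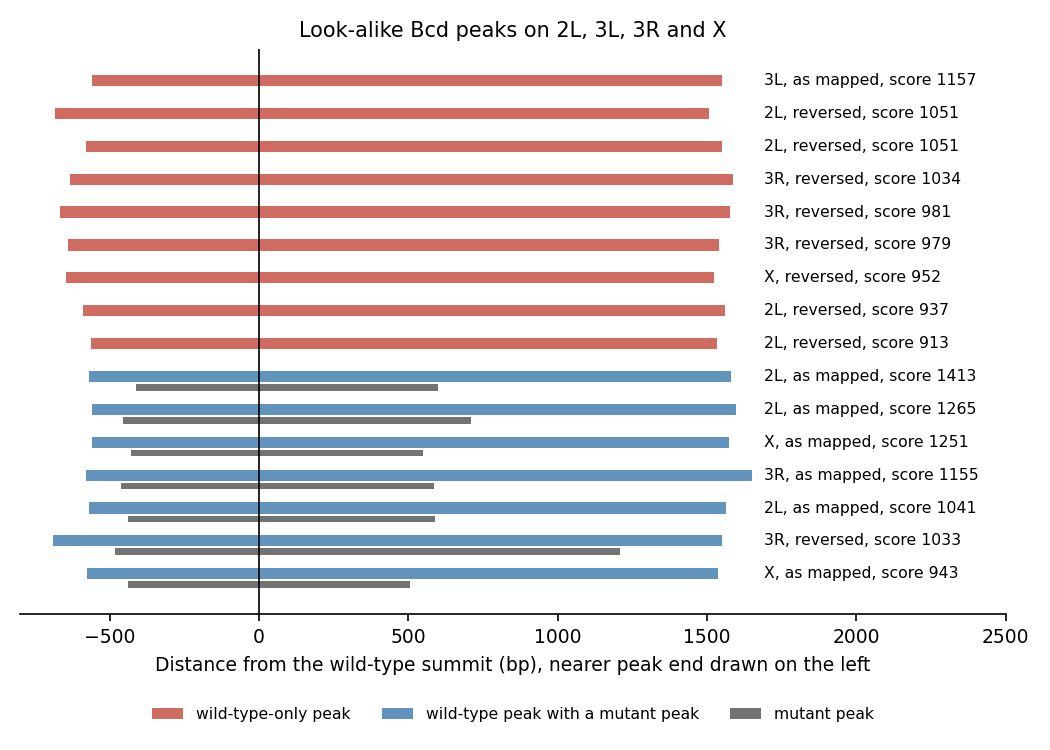
The 16 look-alike wild-type peaks drawn to scale around their summit (x axis, bp from the wild-type summit), each turned so that its nearer end is on the left; red bars are the 9 members, blue bars the 7 peaks with a mutant partner, and dark bars under the blue ones the mutant peaks. Labels give the arm, whether the peak was turned and its score; 8 of the 9 red bars and 1 of the 7 blue bars were turned.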

How the data were processed

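Bcd ChIP and input libraries were made from 2 replicates per genotype, and the authors deposited 1 peak list per genotype. The sources used here do not say how replicates were joined. Bowtie2 on dm3 and MACS 1.4.2 are named in the submitters' processing notes. Per the file headers, MACS used a p cutoff of 1e-05, kept at most 1 tag of 50 bp per position, took a fragment size of 200 bp, scaled the larger of ChIP and control down, and read the local background over 1000 and 10000 bp. With this scaling and the different depths, scores and folds are comparable only within a list. The deposited values of a peak, per the file headers, are its count of ChIP tags (raw), its score (log10 of the p-value times -10), its fold enrichment (a ratio over control) and its false discovery rate as a percent.

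Tags per kb, overlaps of at least 1 bp, distances and look-alike counts were computed from these lists with Python 3.11.15, numpy 2.4.6, pandas 2.3.3, scipy 1.17.1 and matplotlib 3.10.9. A difference between lengths or tags was taken relative to the larger value. Shares have Wilson 95% intervals and single tag counts exact Poisson ones. The interval of a median was taken from ranks by the binomial distribution. No p-value was computed, because the rule used the wild-type ChIP and there is 1 list per genotype. On simulated data, 500 of 500 planted overlaps among 820 peaks were recovered, with 0 false ones. This checked the overlap code only, since the simulated peaks were spaced too widely for a false overlap. Regions were named by rank (fold, density, tags, score, distance, the edges of the rule, pairs and look-alikes). The members, lists and rules were chosen with earlier results of these data known. Planned gene lists, gene positions, motifs and sequences were left out: the gene table used here is of Release 6, and positions were not moved between builds.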

Additional observations from a re-analysis of the deposited data

Results flagged for a closer look

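On the heterochromatic and unplaced sequences, which the arm rule leaves out, 19 wild-type peaks passed the density, length and no-overlap limits, of 83 dense short peaks there (22.9%). They were 6 of 6 on the heterochromatic scaffolds, 3 of 5 on U and 10 of 72 on Uextra, with a median fold of 4.80 and a median score of 109. Their median false discovery rate was 10.9%, against 0.95% in the members, so many of them are weak calls. The 22.9% lay below the 36.7% of dense short peaks on the arms. The share over all wild-type peaks on these sequences was not computed. These peaks were picked out because no comparison above used them.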

How the results depend on the processing

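The settings without look-alike peaks or X, and the copy rules with the summit within 50 bp, were chosen after the data were seen. At 400 tags per kb there were 856 members (45.9% of dense short peaks), 821 with a copy-like partner and 229 within 10 kb of another; their median fold was 5.73 and lay below that of shared peaks, with a difference of -0.375. At 600 tags per kb the same values were 96, 31.0%, 65, 4 and 8.74, and at 750 they were 6, 10.7%, 2, 0 and 10.3, with a fold difference of 1.12 and a median distance of 9.45 kb. Under 3000 bp the share was 40.8%, and 32 members had another within 10 kb. With a mutant summit within 200 bp as the rule, the share was 48.9% and the distance 7.05 kb. The share over all wild-type arm peaks was not computed at any of these changed settings. The median fold was 7.62 for scores of at least 200 and 7.78 for a false discovery rate of at most 5%, where 34 members had another within 10 kb. With that rate asked of the mutant list there were 674 members (82.2%), 641 copy-like and 196 within 10 kb. Fewer mutant peaks remain at this limit, which by construction can only add members. The median distance was 187 kb, the median fold 6.93 and the fold difference -0.40. Without copy-like peaks 36 members were left, with a fold of 8.79, a difference of -0.195 and a distance of 22.5 kb. A density threshold changes the set by construction; the cause of the remaining shifts was not tested. Copy-like members numbered 128 within 1% of length and 2% of tags, 82 with fold within 5% and the partner on another arm, 20 with fold and a summit within 20 bp, 41 with a summit within 50 bp, and 50 when read from either end. Within 5 kb, 26 members had another. No paired analysis was possible because each genotype has a single list without values per replicate, and for the same reason no replicate was left out. With 10060479 mutant tags, a weak mutant peak may go uncalled.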
